A study of Oryctolagus cuniculus with 30 samples.

Results

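The transcripts described here are those that were higher in film-covered than in uncovered rabbit ear wounds 3 days after the epidermis had closed. They were chosen by measured values: in the authors' deposited table, among probes of the array's AF design class, a member had a mean of at least 9 (log2) in its highest group and a covered minus uncovered difference of at least 0.8 (log2) at day 3. The rule found 192 member probes, which is 2.46% of the 7795 AF probes that met the level cutoff, out of 14558 AF probes and 23369 probes in all. They belong to 119 contigs, a contig being an assembled transcript sequence, a single clone read or a GenBank entry from which the probes were designed. The covered minus uncovered difference at day 3 is therefore what defines the members and is given only as a description.

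All samples were ear epidermis from New Zealand White rabbits, all female, each hybridized alone to a 1-colour (Cy3) Agilent array with probes of 60 bases. Shallow grid incisions on both ears stayed beneath 1 layer of clear adhesive Tegaderm film until closure 2 days later, which is day 0 here. The right ear was then left bare (uncovered) and the left ear received 4 more layers (covered). There were 2 arrays of unwounded skin and 6 of the wound at day 0. Uncovered wounds had 6 arrays at each of days 3 and 5, and covered wounds 5 at each. The epidermis had been lifted off the dermis by 30 min in 0.5 M ammonium thiocyanate, so a change in the mix of epidermal layers or cells and a change of RNA per cell cannot be told apart. No label says which animal an array came from. The p-values therefore reflect the spread among these samples, which may be technical, and both arms may hold tissue of the same animal.

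Epidermis renews from a basal layer whose cells differentiate as they move outward and end as a cornified, lipid-sealed sheet that holds water in. Wounding turns keratinocytes from this program to migration and proliferation, and the water barrier is rebuilt after closure. An occlusive film limits water loss while that happens, and the study compared hydration states of the closed wound in this way. The array files describe every probe as unknown, and the reference table used here held no matching name, so members are given by probe and contig, their functions are not stated, and the marker genes of epidermal layers could not be checked.

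The probe sequences below are those on which the results turn, printed as the array files give them, with capitals for the letters AATAAA or ATTAAA, the common polyadenylation signals, searched on the printed strand only. The first pair is from the contig of UF_Ocu_AF_100041, the probe with the largest rise of the set, and the next probe is from R4.2120.C1, whose rise at day 3 was of the same order and whose day 5 difference was not called.
UF_Ocu_AF_100041: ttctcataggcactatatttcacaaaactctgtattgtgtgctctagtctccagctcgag
UF_Ocu_AF_100042: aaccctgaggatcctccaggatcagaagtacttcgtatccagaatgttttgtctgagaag
UF_Ocu_AF_102106: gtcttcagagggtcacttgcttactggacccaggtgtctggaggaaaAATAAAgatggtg
The 4 probes that follow were higher under cover at day 5 too, with the smallest adjusted p-values among members well above background on every covered array of that day, 1 per contig.
UF_Ocu_AF_109982: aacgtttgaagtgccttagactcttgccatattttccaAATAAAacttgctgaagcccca
UF_Ocu_AF_101997: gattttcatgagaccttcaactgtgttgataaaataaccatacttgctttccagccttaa
UF_Ocu_AF_103407: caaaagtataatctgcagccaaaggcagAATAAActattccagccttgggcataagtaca
UF_Ocu_AF_111121: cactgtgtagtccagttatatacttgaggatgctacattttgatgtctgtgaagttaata
The probes below stand for the deepest fall at day 0, a level in covered wounds that was high at day 3 and low at day 5, the largest recovery from day 0, and the only member called lower under cover at day 5.
UF_Ocu_AF_104733: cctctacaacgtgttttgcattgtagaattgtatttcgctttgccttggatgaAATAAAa
UF_Ocu_AF_111876: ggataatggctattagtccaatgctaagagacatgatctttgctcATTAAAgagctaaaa
UF_Ocu_AF_111842: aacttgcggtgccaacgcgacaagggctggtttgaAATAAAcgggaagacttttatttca
UF_Ocu_AF_111843: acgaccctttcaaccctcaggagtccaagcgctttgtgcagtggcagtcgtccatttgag
UF_Ocu_AF_102619: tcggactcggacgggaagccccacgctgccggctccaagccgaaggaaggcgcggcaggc
The letters AATAAA or ATTAAA occurred in 41 of the 192 members (21.4%) and in 17.0% of the 7795 AF probes at the level cutoff. No 2 members shared a run of 20 bases. Member probes were poorer in G and C, with a median GC content of 38.3% (range 35.0% to 73.3%) against 43.3% for AF probes at the level cutoff.

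In the authors' table the rise at day 3 ran from 0.80 to 1.80, with a median of 1.0 (log2), and 96 members rose by at least 1. The scanner signals, scaled here to each array's 75th percentile of detected probes (log2), gave 192 of 192 members a positive difference, from 0.09 to 2.95 with a median of 1.11. For 126 members in the scanner signals and 136 in the authors' table every covered array lay above every uncovered array at day 3, as for 6.68% and 6.62% of all tested probes. At a limma adjusted p under 0.05, 168 members and 9.07% of all 12342 tested probes were higher at day 3, and nothing is read from these counts, since the rule used that contrast. The members just inside the cutoff were UF_Ocu_AF_108288, UF_Ocu_AF_114550 and UF_Ocu_AF_110822, all with a rise of 0.80. Just outside lay UF_Ocu_AF_106303, UF_Ocu_AF_112834 and UF_Ocu_AF_111868, also at 0.80 after rounding.

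Nearly all members reached the level cutoff in other groups as well: 163 did so in all 6 groups and 189 in at least 1 group other than covered wounds at day 3. The exceptions, UF_Ocu_AF_105347, UF_Ocu_AF_103043 and UF_Ocu_AF_107989, reached it only in covered wounds at day 3. Of these, UF_Ocu_AF_105347 rose by 1.34 in the authors' table but by only 0.09 in the scanner signals. It was well above background on 3 covered arrays of day 3, and 1 of its values was saturated. All 192 members passed the filter on dim probes, and 161 were well above background on all 30 arrays. Within slides that held both arms of day 3, 192, 189 and 188 members were higher under cover, against 51.6%, 45.3% and 61.7% of all tested probes. The rule used these arrays, so nothing is read from those counts. The uncovered arrays of replicates 5 and 6 lay apart from the other day 3 uncovered arrays, with member medians of -1.97 and -2.05 against -1.45 to -0.98. Without replicate 6 the rule found 151 members, and without replicate 5 it found 160.

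**Figure D1:**
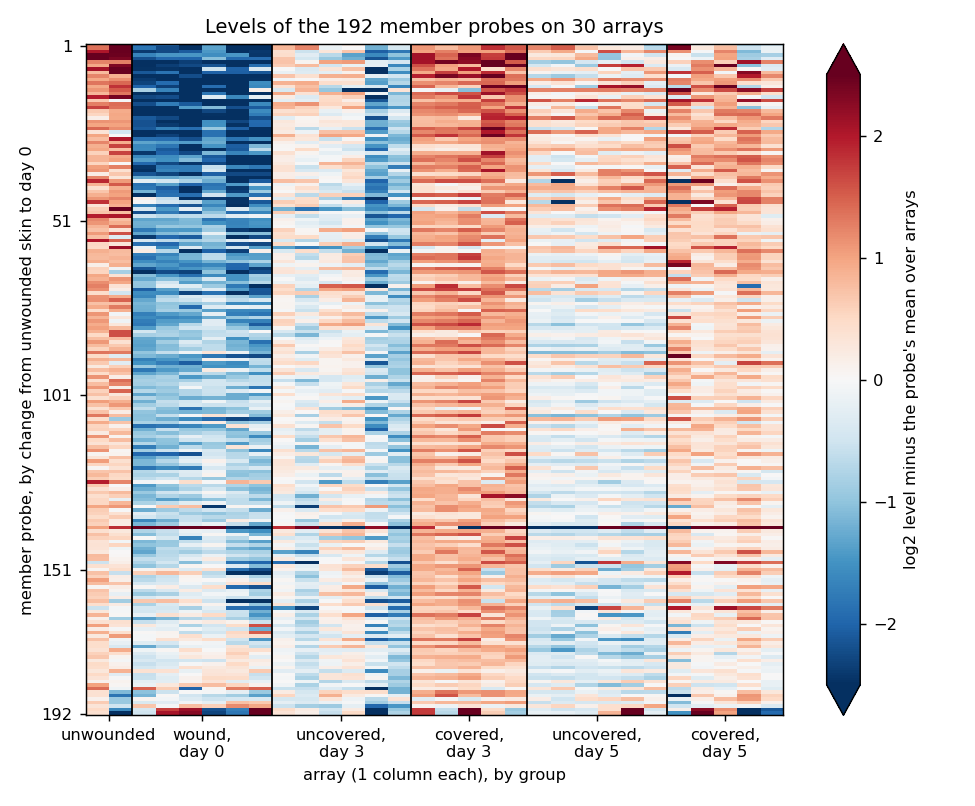
Heat map of the 192 member probes (rows, ordered by the change from unwounded skin to day 0) on 30 arrays (columns, by group), coloured by the log2 level minus the probe's mean over arrays, with the scale ending at 2.5 either way. The day 0 columns are blue for most rows, the unwounded and covered day 3 columns red, and the day 5 columns paler, with covered arrays redder than uncovered ones.

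The members' common course is seen in the median over members on each array. It was -0.48 and -0.63 on the 2 unwounded arrays, and ran from -2.45 to -2.04 at day 0. Uncovered wounds lay between -2.05 and -0.98 at day 3 and between -1.40 and -1.20 at day 5. Covered wounds lay between -0.46 and -0.19 at day 3, and their 5 arrays at day 5 stood at -0.76, -0.90, -0.74, -0.77 and -1.04. Thus every covered array stood above every uncovered array at day 5, and all day 0 arrays lay below all unwounded and all day 5 arrays. Day 3 values here follow from the choice of members. The median over all tested probes moved far less, with group means from -3.69 at day 0 to -3.24 in uncovered wounds at day 5.

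**Figure D2:**
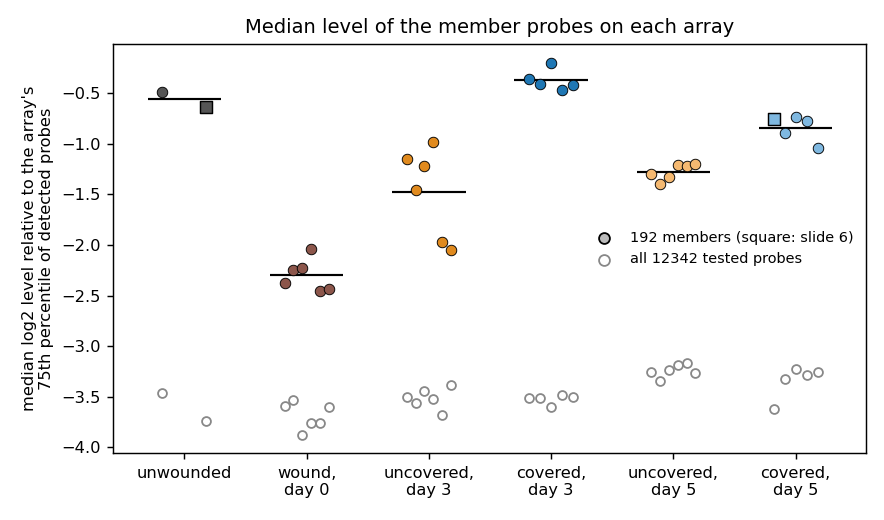
Median log2 level of the 192 members on each array (filled points, squares for slide 6) by group, with the group mean as a line and the median of all 12342 tested probes as open points. Group means of the member median were -0.56 in unwounded skin, -2.29 at day 0, -1.47 and -0.37 in uncovered and covered wounds at day 3, and -1.28 and -0.84 at day 5.

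The first question was how many members were still higher under cover at day 5, in samples the rise cutoff did not use. The level cutoff did use them, since it took the highest mean over all 6 groups. By limma's test over all 12342 tested probes with Benjamini-Hochberg adjustment, 42 of 192 members (21.9%) were higher in covered than in uncovered wounds at day 5, against 7.16% of all tested probes and 9.05% of AF probes at the level cutoff. A single member, UF_Ocu_AF_102619, was lower, against 6.58% of all tested probes. The difference was positive for 171 members (89.1%), against 48.8% of all tested probes, with a member median of 0.48 against -0.01, and it ranged from -1.39 to 1.85. By the authors' values 172 members kept a positive difference, with a median of 0.43, and 26 kept one of at least 0.8. These 2 counts have no share of all probes beside them and only describe the members. The 42 called probes came from 31 contigs, and 11 contigs had both probes called.

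Every covered array lay above every uncovered array at day 5 for 61 members (31.8%), and for 7.54% of all tested probes. Slides 1, 3 and 9 each held both arms of day 5, and within them 167, 139 and 164 members were higher under cover, with medians of 0.52, 0.32 and 0.40. The direction was thus shared by most members within each of these slides, where between 49.7% and 53.6% of all tested probes were higher. The count of calls rested on single arrays. It was 21 without covered replicate 1, 22 without covered replicate 4 and 25 without uncovered replicate 5 of day 5, while the members with a positive difference numbered 170, 165 and 171. Covered replicate 1 of day 5 and unwounded replicate 2 share slide 6 and had the lowest all-probe medians of their groups (-3.62 and -3.74). Without that slide 22 members were called and 170 were positive. The changes in these counts are not read as particular to the members, since no share of all tested probes is set beside them.

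Probe GC content moved with the day 5 difference among AF probes at the level cutoff. These probes were divided by GC content into low, middle and high classes of 2745, 3061 and 1989 probes. In the low class (GC up to 36.7%) the 94 members had a median difference of 0.55 and 25 were called higher, against 0.27 and 17.1% for all probes of that class. In the middle class the 76 members had a median of 0.39 and 17 calls (22.4%), against 0.08 and 7.68%. In the high class (GC from 46.7%) the 22 members had a median of 0.02 and no call, against -0.23 and 0.101%. The members' median therefore lay 0.26 to 0.32 above that of all probes of their own class, members included. The median of each class fell with GC. With each array centred within bins of GC content, a choice made after seeing the data, 22 members were called. A positive difference remained for 173, with a median of 0.38. No share of all tested probes is set beside these counts, so they are not read as particular to the members. The part of base composition in the day 5 calls was otherwise not tested.

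**Figure D3:**
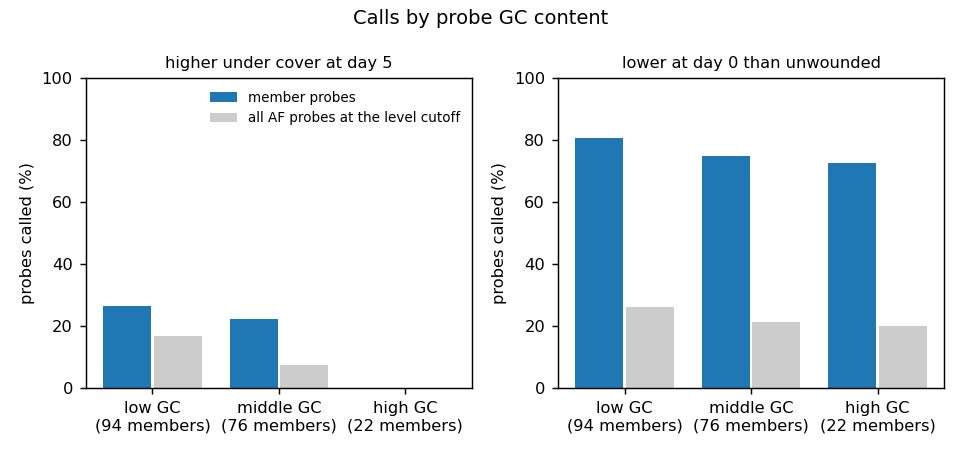
Percentage of probes called (limma adjusted p under 0.05) higher under cover at day 5 (left) and lower at day 0 than in unwounded skin (right), for members (blue) and all AF probes at the level cutoff (grey), by class of probe GC content. The left bars fall from 26.6% to 0% of members with rising GC, and the right bars stay between 72.7% and 80.9%.

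UF_Ocu_AF_109982, of clone nbc10c06.x1, had the smallest adjusted p at day 5 among the members named. Its levels (log2, relative to the 75th percentile) at day 5 were 0.35, 0.56, 0.77, 0.60 and 0.25 on the 5 covered arrays and ran from -0.96 through a median of -0.31 to 0.01 on the 6 uncovered arrays. The arms did not overlap, and the difference was 0.86 ± 0.16 (SE), or 1.82-fold (adjusted p = 0.000494, limma). In unwounded skin the probe stood at 0.84 and 1.42 and at day 0 between 0.38 and 0.93. It differed from most members in falling below its day 0 level in uncovered wounds, by 1.05 ± 0.15 on the log2 scale (adjusted p = 1.02e-06, limma), while covered wounds at day 5 differed from day 0 by -0.19 ± 0.16 (adjusted p = 0.319, limma).

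UF_Ocu_AF_101997, of contig R4.4136.C2, combined a deep fall at day 0 with one of the larger day 5 differences. At day 5 its levels were -4.41, -3.83, -4.40, -2.90 and -3.76 under cover and from -5.98 through -5.45 to -4.73 without cover. The arms did not overlap, and the difference was 1.58 ± 0.29 (SE), or 3.0-fold (adjusted p = 0.000690, limma). Only 4 of the uncovered arrays of day 5 were well above background, and the authors' table gave a difference of 1.10. Both unwounded arrays stood at -3.75 and -3.74, and the day 0 arrays, from -8.53 through -8.10 to -7.36, were all at background. In the scanner signals, unwounded skin was at least 8.52-fold higher than day 0, and covered wounds at day 5 at least 7.88-fold higher. These bounds set group means against each dim array's higher value of its own signal and its lowest detected signal. They hold for the scanner signals only, as other processing gave smaller changes. Normexp background correction gave a day 5 difference of 0.89 that no longer passed. The fall at day 0 was 1.91 in the authors' table and 2.02 with normexp on the log2 scale, and both passed. The rise from day 0 to covered wounds at day 5 was 1.62 and 1.96 in these settings, and both passed.

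The other members named for day 5 moved by less. UF_Ocu_AF_111121 (nag16b01.x1) was higher by 1.07 ± 0.23 (SE), with covered levels of -2.14, -2.43, -2.13, -2.5 and -2.69 and uncovered levels from -3.73 through -3.59 to -3.05. UF_Ocu_AF_103407 (nbd22b09.x1) was higher by 0.83 ± 0.15, with covered levels of -3.74, -3.76, -4.09, -3.61 and -4.24 and uncovered levels from -4.92 through -4.76 to -4.31. In neither probe did the arms overlap, and limma's adjusted p-values were 0.00247 and 0.000719. UF_Ocu_AF_105948, UF_Ocu_AF_110472, UF_Ocu_AF_113197 and UF_Ocu_AF_105823 differed by 0.70, 0.61, 0.86 and 0.68, with limma adjusted p-values from 0.00419 to 0.00694. Of these named probes, UF_Ocu_AF_111121, UF_Ocu_AF_103407 and UF_Ocu_AF_113197 lost the call under normexp background correction, and UF_Ocu_AF_110472 lost it when arrays were centred within GC bins, which also took UF_Ocu_AF_105823 to 0.44 with its call kept.

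The 8 members with the largest rises at day 3 (1 per contig) differed in what they kept. UF_Ocu_AF_100041 stood at 1.81, 1.89, 1.99, 2.26 and 1.58 in covered wounds at day 3 and from -1.0 through 0.50 to 0.74 in uncovered wounds. At day 5 the covered arrays read 0.70, 1.83, 1.93, 2.08 and 1.67, and the uncovered arrays from 0.05 through 0.70 to 1.15. Covered replicate 1 lay inside the uncovered range, and the difference of 0.98 ± 0.32 (SE) had an adjusted p of 0.0412 (limma). Its contig partner UF_Ocu_AF_100042 gave 1.02 ± 0.34 (adjusted p = 0.0442, limma). Both calls stood near the threshold, and each was lost in 12 of 22 alternatives. Both were lost with normexp, with no filter on dim probes, and when the replicate number was a block, and that of UF_Ocu_AF_100041 also within GC bins. The call of UF_Ocu_AF_100041 was lost without any 1 of uncovered replicates 1, 2, 3 and 6 or covered replicates 2, 3, 4 and 5 of day 5, and that of UF_Ocu_AF_100042 without these or uncovered replicate 5.

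UF_Ocu_AF_109209 also kept its rise, at 1.05 ± 0.27 (SE; adjusted p = 0.0102, limma), with covered levels of 3.75, 2.48, 2.61, 3.17 and 2.72 against 1.68 through 1.84 to 2.23. The arms did not overlap, but the call was lost without covered replicate 1, with slide as a block, and with arrays centred within GC bins. UF_Ocu_AF_101896 (R4.1676.C1) differed by 0.93 ± 0.34 and missed the threshold (adjusted p = 0.0614, limma). UF_Ocu_AF_113862 (R4.2239.C1) differed by 0.51 ± 0.31 (adjusted p = 0.256, limma).

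The remaining members of that group showed no difference past the threshold at day 5. UF_Ocu_AF_102106 (R4.2120.C1) had covered levels at day 3 of 1.5, 1.32, 2.0, 0.88 and 1.37 against -3.03 through 0.14 to 0.80. At day 5 its covered levels were -0.14, 1.28, 1.02, 0.17 and -0.26, and its uncovered levels ran from 0.03 through 0.41 to 0.78, so the uncovered arrays lay within the covered range. The difference was 0.01 ± 0.52 (adjusted p = 0.995, limma). For UF_Ocu_AF_112109 (nbc25f04.y1), UF_Ocu_AF_111842 (nbc30b12.x1) and UF_Ocu_AF_113739 (a GenBank entry) it was 0.14 ± 0.60, 0.13 ± 0.36 and 0.03 ± 0.34. These standard errors leave room for differences of the size seen in the called members.

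UF_Ocu_AF_102619 (R4Sub.80.C3), with a GC content of 73.3%, turned at day 5. It had risen under cover at day 3 by 1.06 in the authors' table, and at day 5 its covered arrays read -0.33, -0.08, 0.04, 0.09 and -0.17 against 0.32 through 0.65 to 1.17 without cover. No covered array reached the uncovered range, and the difference was -0.76 ± 0.24 (SE; adjusted p = 0.0382, limma). The call was lost in 15 of 22 alternatives: without slide 6, with the percentile taken over all probes, with normexp, without the filter on dim probes, with the replicate number, scan day or slide as a block, within GC bins, and without any 1 of uncovered replicates 2, 4, 5 and 6 or covered replicates 1, 4 and 5. With arrays centred within GC bins the difference was -0.05. Its contig partner UF_Ocu_AF_102618, also a member, differed at day 5 by -0.56 ± 0.46 and was not called (adjusted p = 0.427, limma). Their levels correlated over the arrays with r = 0.71. From unwounded skin to day 0 UF_Ocu_AF_102618 changed by -0.15 and UF_Ocu_AF_102619 by 0.78.

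**Figure D4:**
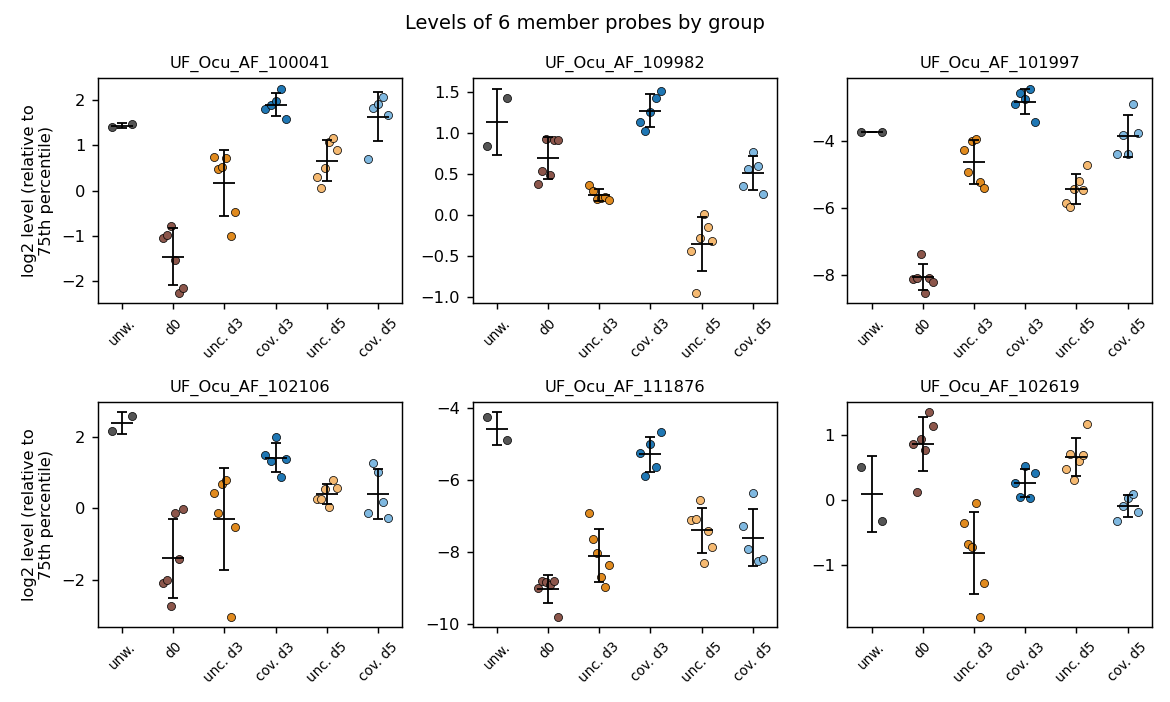
Log2 level relative to the array's 75th percentile of 6 member probes on each array (points), with the mean and SD of each group (bars): unwounded skin (unw.), day 0 (d0), and uncovered (unc.) and covered (cov.) wounds at days 3 and 5. Covered and uncovered arrays at day 5 do not overlap for UF_Ocu_AF_109982, UF_Ocu_AF_101997 and UF_Ocu_AF_102619, and do for the other probes.

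The next question was where the members stood against unwounded skin and the fresh wound. They were mostly transcripts of unwounded epidermis that were low at closure: 149 of 192 (77.6%) were lower at day 0 than in unwounded skin (limma, adjusted p under 0.05), against 20.2% of all tested probes. None was higher, against 17.1% of all tested probes, and 1 was higher at an unadjusted p under 0.05. By the authors' values 185 members were lower at day 0, 136 of them by at least 1, a description without a share of all probes. The scanner change was negative for 187 members (97.4%), with a median of -1.62 against -0.02 for all tested probes, and ranged from -4.76 to 1.72. Both unwounded arrays lay above all 6 day 0 arrays for 154 members (80.2%), and for 20.4% of all tested probes. The 149 calls came from 93 contigs.

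The count at day 0 was 121 without unwounded replicate 1, 132 without unwounded replicate 2 and 138 without slide 6. No slide held both groups, so no within-slide value could be had. In the low, middle and high GC classes 76, 57 and 16 members were lower, which is 80.9%, 75% and 72.7% against 26.4%, 21.6% and 20.1% of AF probes at the level cutoff. Here the members' share differed little between classes, and the count was 149 with arrays centred within GC bins. The 5 members with a positive change were UF_Ocu_AF_110328, UF_Ocu_AF_110327, UF_Ocu_AF_102619, UF_Ocu_AF_113457 and UF_Ocu_AF_105347, none past the threshold, and they are named because their values were seen.

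Among the deepest falls, UF_Ocu_AF_104733 (R4.3678.C1) stood at -0.00 and 1.68 in unwounded skin and from -5.37 through -3.83 to -2.70 at day 0. The change was -4.76 ± 0.73 (SE), or 27.1-fold (adjusted p = 1.40e-05, limma), and -3.09 with scan day as a block. UF_Ocu_AF_113374 went from -2.39 and -1.92 to levels between -7.32 and -5.84, a change of -4.50 ± 0.59 (adjusted p = 1.88e-06, limma). Only 2 of its 6 day 0 arrays were well above background, and the change was -2.59 in the authors' table and -2.82 with normexp. In both probes the groups lay far apart, and at day 5 neither differed between arms past the threshold, with differences of 0.08 ± 0.54 and -0.65 ± 0.44.

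UF_Ocu_AF_111876 (nag05d08.y1) stood at -4.26 and -4.90 in unwounded skin, and its day 0 arrays, between -9.79 and -8.81, were at background. In the scanner signals, unwounded skin was at least 4.79-fold higher (adjusted p = 1.65e-07, limma), a bound that holds for those signals only. Covered wounds at day 3 read -5.25, -5.90, -5.0, -5.64 and -4.66, near the unwounded arrays, but at day 5 the uncovered arrays were at background again, and the covered arrays read -7.28, -7.90, -6.37, -8.24 and -8.19, with 1 of the 5 well above background. This probe was thus well above background on every array of unwounded skin and of covered wounds at day 3, and of no other group. The fall at day 0 was 1.59 on the log2 scale in the authors' table, and 1.63 with normexp background correction, which did not pass.

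The 149 members lower at day 0 and the other 43 were set side by side at day 5. Of the former, 31 (20.8%) were higher under cover at day 5, with a median difference of 0.47, and of the latter 11 (25.6%), with a median of 0.53. The former had median levels of -0.47 in unwounded skin, -2.53 at day 0, -1.09 in uncovered and -0.64 in covered wounds at day 5. The latter stood at -1.26, -1.68, -1.90 and -1.66. These classes were split on the day 0 call, so their day 0 levels differ by that choice. In all, 169 members (88.0%), and 28.6% of all tested probes, were both lower at day 0 than in unwounded skin and higher under cover at day 5, by direction alone, in comparisons that share no array.

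**Figure D5:**
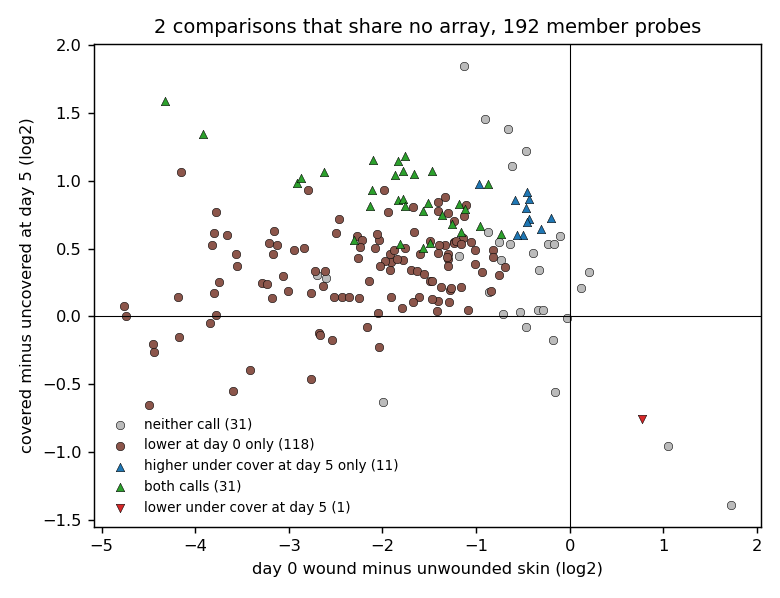
Log2 change from unwounded skin to day 0 (x axis) against the covered minus uncovered difference at day 5 (y axis, log2) for the 192 members, 1 point each, coloured by limma calls at an adjusted p under 0.05. The comparisons share no array. Of the points, 169 lie at the upper left, 31 members carry both calls, and the single member lower under cover at day 5 lies at the lower right.

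By day 5 most members were higher than at day 0 in both arms. In covered wounds 150 members differed between day 5 and day 0, against 56.1% of all tested probes. Of these, 149 were higher, against 38.1%, and UF_Ocu_AF_102619 was lower, by 0.96 ± 0.24 (SE) on the log2 scale, and by 0.63 with array weights. The median change was 1.39 against 0.33 for all tested probes. In uncovered wounds 115 (59.9%) were higher, against 44.1%, and 7 (3.65%) lower, against 21.4%, with a median of 0.82 against 0.47. In that arm calls in either direction were thus about as common among members as among all tested probes. Without slide 6 the higher members numbered 148 and 122. These comparisons share the day 0 arrays, so their calls are not independent. Within slide 2, which held both groups, 172 members (89.6%) were higher in covered wounds at day 5 than at day 0, against 65.6% of all tested probes. Within slides 7 and 11, 169 and 148 members (88.0% and 77.1%) were higher in uncovered wounds, against 60.5% and 67.2%.

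The largest recovery was in nbc30b12.x1. UF_Ocu_AF_111842 stood at -0.46 and -1.27 in unwounded skin and from -4.98 through -4.09 to -2.66 at day 0. At day 5 it read 0.91, 0.72, -0.17, 0.67 and 0.15 under cover and from 0.02 through 0.24 to 0.67 without cover. All day 5 arrays of both arms lay above the unwounded arrays, and the change under cover was 4.50 ± 0.36 (SE), or 22.6-fold (adjusted p = 1.45e-10, limma). For its partner UF_Ocu_AF_111843, at background on all day 0 arrays, covered wounds at day 5 were at least 16.8-fold higher in the scanner signals. That bound holds for those signals only. The rise of UF_Ocu_AF_111843 under cover was 5.14 on the log2 scale in the scanner signals, which its day 0 background leaves uncertain, and 2.495 in the authors' table. UF_Ocu_AF_107721 (nag23f01.y1) rose by 4.35 ± 0.78 under cover (adjusted p = 3.60e-05, limma), from day 0 levels that ran from -9.21 to -4.18. Only 3 of its 6 day 0 arrays were well above background, and the rise was 2.19 in the authors' table and 2.59 with normexp.

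Against unwounded skin, covered wounds at day 5 had few calls. There were 10 members lower (5.21%), against 1.27% of all tested probes, and 1 higher, UF_Ocu_AF_113197, against 6.60%, with a median change of -0.18 against 0.26. The change was negative for 129 members (67.2%), against 32.6% of all tested probes. Within slide 6, which held both groups, 95 members (49.5%) were higher, against 56.1% of all tested probes. The 10 lower members came from 7 contigs and included UF_Ocu_AF_111876, UF_Ocu_AF_113374 and UF_Ocu_AF_113861, at -3.02, -2.03 and -1.54. The count was 3 without unwounded replicate 2 or without slide 6, 18 without covered replicate 1, and 5, 4 and 6 without covered replicates 2, 4 and 5. With 2 unwounded arrays, a p that missed the threshold does not show that levels were equal.

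In uncovered wounds at day 5, 70 members were lower than in unwounded skin, against 10.4% of all tested probes. Another 2, UF_Ocu_AF_110097 and UF_Ocu_AF_112098, were higher, against 21.9%. The median change was -0.71 against 0.31 for all tested probes. Within slide 5, which held both groups, 24 members (12.5%) were higher, against 62.7% of all tested probes. The count of lower members was 38 and 26 without unwounded replicates 1 and 2, 35 without slide 6, and 109 with the percentile taken over all probes, while 156 to 172 members had a negative change under all alternatives. Both comparisons use the same unwounded arrays, and the difference between them is the day 5 comparison given above.

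In the authors' table, day 3 means can be set beside these as a description. Covered wounds at day 3 were above unwounded skin for 131 members and between day 0 and unwounded skin for 58, and 122 members lay within 0.5 of unwounded skin. Uncovered wounds at day 3 were below unwounded skin for 183 members and below day 0 for 41. The group with the highest mean was covered wounds at day 3 for 115 members and unwounded skin for 52, and the lowest was day 0 for 135, uncovered day 5 for 33 and uncovered day 3 for 23.

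Member probes of the same contig mostly moved together. Of the 119 contigs, 73 had 2 member probes, whose levels correlated over the 30 arrays with a median r of 0.98 (range 0.46 to 1.00), and 67 pairs exceeded 0.9. This is a description over arrays that share the groups. Both probes of each pair had passed the rise cutoff on day 3 arrays, which favours agreement. The signs of the day 5 difference matched in 68 pairs and those of the change at day 0 in 71. UF_Ocu_AF_102106 and UF_Ocu_AF_102107 of R4.2120.C1 correlated with r = 0.99 and fell at day 0 by 3.78 and 4.17 on the log2 scale. UF_Ocu_AF_113861 and UF_Ocu_AF_113862 of R4.2239.C1 (r = 0.98) fell by 2.47 and 2.24. Of the 46 contigs with a single member, 39 had a second probe at the level cutoff, and these second probes missed the rise cutoff with rises of 0.21 to 0.80 (median 0.72). Probes of a contig are thus not independent, and a count of probes is larger than the count of transcripts behind it.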

How the data were processed

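The deposited scanner files hold spot intensity as read by Agilent's Feature Extraction program, values that were, per the file headers, background-subtracted but not scaled across arrays, and 0 or 1 flags for detection, saturation and outliers. The authors' deposited table holds intensity on a linear scale with like quantiles in every column. The submitters' processing notes name limma, with settings not given in the sources used. Members were taken from log2 values of that table. For the tests, control and outlier spots were dropped, log2 of the processed signal was taken, spots of a probe were averaged, and each array's 75th percentile over the 7446 probes detected on all arrays was subtracted. The 12342 probes detected (well above background) on 2 or more arrays entered 1 limma 3.58.1 fit in R 4.3.3 over 30 arrays and 6 groups without a block (2-sided, Benjamini-Hochberg within a comparison, threshold 0.05). The fit was tested on simulated data. Per array 39.7% to 50.4% of probes were well above background, and the number of arrays limits the precision.

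Named members were the 8 largest rises, 3 on each side of the cutoff, the 8 smallest adjusted p at day 5 (1 per contig), any lower at day 5, the 6 deepest falls at day 0, the 3 contigs with most members (ties by mean rise), and the 3 largest changes from day 0 to covered day 5 each way. Members, lists and tests were chosen with earlier results of these data known. The gene lists fixed for epidermal function and the marker lists could not be used, because no probe could be named. Same-numbered arrays of the day 5 arms did not deviate alike from their group means (correlations from -0.36 to 0.04). This cannot show whether such arrays share an animal. Alternatives were other scalings, normexp background correction (offset 50), the authors' table, no filter, slide, scan day or replicate number as a block, array weights, leaving out slide 6 or single arrays, and, added after seeing the data, centring within 8 bins of GC content.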

Additional observations from a re-analysis of the deposited data

Results flagged for a closer look

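Each named member, and the median over members, was checked within each group of 4 to 10 arrays for a lowest or highest array whose gap to its nearest neighbour was a large share of the group's range (Dixon's 95% critical value). There were 140 such groups for the 28 named members and 5 for the member median, and 11 of the 145 had one, all of named members, where chance gives about 1 in 20. UF_Ocu_AF_112109 read -7.44 on replicate 5 of wounds at day 0, against -6.11 on the nearest array. UF_Ocu_AF_113739 read -3.38 on replicate 4 of wounds at day 0, against -4.59 on the nearest array. UF_Ocu_AF_111876 read -9.79 on replicate 6 of wounds at day 0, against -9.0 on the nearest array. These arrays of day 0 differ from probe to probe. UF_Ocu_AF_102106 read -3.03 on replicate 5 of uncovered wounds at day 3, against -0.52 on the nearest array. UF_Ocu_AF_102107 read -4.27 on replicate 5 of uncovered wounds at day 3, against -1.58 on the nearest array. These are the probes of contig R4.2120.C1, low on the same array. UF_Ocu_AF_113862 read -2.45 on replicate 4 of covered wounds at day 3, against -1.25 on the nearest array. UF_Ocu_AF_111842 read 1.2 on replicate 4 of covered wounds at day 3, against 0.56 on the nearest array. Both came from replicate 4, on opposite sides. UF_Ocu_AF_113862 read -1.61 on replicate 6 of uncovered wounds at day 5, against -2.29 on the nearest array. UF_Ocu_AF_103407 read -4.31 on replicate 4 of uncovered wounds at day 5, against -4.72 on the nearest array. UF_Ocu_AF_113861 read -2.02 on replicate 6 of uncovered wounds at day 5, against -2.73 on the nearest array. UF_Ocu_AF_113861 and UF_Ocu_AF_113862 are partners of contig R4.2239.C1 and were high on the same array. UF_Ocu_AF_113862 read -2.31 on replicate 5 of covered wounds at day 5, against -1.79 on the nearest array. No more than 2 of these values fell on any 1 array.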

How the results depend on the processing

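The fall of members at day 0 kept its count within 1.5 times (121 to 155) under all 19 alternatives, and the count higher in covered wounds at day 5 than at day 0 did so under all 22 (130 to 159), as did that in uncovered wounds under all 23 (87 to 128). The count higher under cover at day 5 was 68 with quantile normalization, 16 with normexp, 25 without the filter, 24 with scan day as a block, 22 without slide 6, 22 with arrays centred within GC bins and 76 with array weights. Leaving out single arrays gave 21 to 52, and 158 to 175 members had a positive difference under all 22 alternatives. Members lower in covered wounds at day 5 than in unwounded skin numbered 1 with normexp, 16 in the authors' table, 5 without the filter, 3 with slide as a block, 3 without slide 6 and 0 with array weights (0.186% of all tested probes), and 3 to 18 without single arrays. Members lower in uncovered wounds at day 5 than in unwounded skin numbered 109 with the percentile over all probes, 43 with normexp, 45 without the filter, 34 with slide as a block, 37 with scan day, 35 without slide 6 and 33 with array weights, and 26 to 65 without single arrays. Of members higher in covered wounds at day 5 than in unwounded skin there were 0 with the percentile over all probes, quantile normalization, normexp, the authors' table, without slide 6, with GC bins or array weights, 3 with scan day as a block, and 0 to 5 without single arrays. In uncovered wounds there were 0 with the percentile over all probes, normexp, no filter, a block for slide or scan day, without slide 6, with GC bins or array weights, and 0 to 3 without single arrays. At day 0, 1 member was higher with the percentile over all probes, and 0 to 1 without single arrays. With the replicate number as a block, 34 members were higher under cover at day 5 and 155 lower at day 0. In that setting 3 were higher in covered wounds at day 5 than in unwounded skin. Whether these numbers pair animals is not known, and no covered array of day 5 correlated best with its own number in the other arm. A rise cutoff of 1 left 96 members and the rise in the scanner signals gave 409, of which 177 were shared; without single day 3 arrays there were 151 to 249. For the members named, 758 values kept their side of the threshold, 49 lost and 6 gained a call, and 0 called values reversed. Among the 758, 20 uncalled day 5 differences, of 5 members, changed sign. The cause of these changes was not tested. Where no share of all tested probes is printed beside a count, its change is not read as particular to the members. Signals near background limit the dim members, such as UF_Ocu_AF_111876.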
